A study of Homo sapiens with 18 samples.

Results

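The 10 inflammasome genes described here, matched by gene symbol among 58735 annotated genes, were followed in 2 human keratinocyte lines after a scratch wound: the sensors NLRP1, NLRP2, NLRP3, CARD8 and AIM2, the adaptor PYCARD, the caspases CASP1 and CASP4, the pore-forming GSDMD and the cytokine IL18. All 10 were in the count table, and 9 of the 10 passed the filter on low counts that left 17409 genes for testing; AIM2 did not. HaCaT is an immortal keratinocyte line from skin, and TIGK is a telomerase-immortalised keratinocyte line from gingiva. RNA was taken from unscratched cells of each line (0 h) and from cells 6 h or 24 h after scratching, which gives 6 groups of 3 libraries. Skin and gingiva are each represented by 1 line, so tissue and line cannot be told apart, and no culture was kept unscratched for 24 h, so the hours after scratching and the hours of culture cannot be told apart either. The set was selected on 1 measured value, the level of NLRP2 in the lines, and all 10 were proposed with the levels in view, so levels are compared between the lines as a description, with no test, while changes over time within a line, and the difference between the lines in those changes, were tested.

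An inflammasome is a protein complex in which a sensor, often joined by the adaptor ASC (encoded by PYCARD), activates caspase-1. Caspase-1 matures interleukin-1β and interleukin-18 and cleaves gasdermin D, whose fragments form pores in the plasma membrane and can kill the cell by pyroptosis. In human keratinocytes NLRP1 is the best-described sensor, whereas NLRP3 and AIM2 are best known from myeloid cells. These are steps in proteins, and RNA levels do not measure them.

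Libraries held 14238090 to 25011331 counted reads. Those of a group are told apart by the letters A, B and C of the files' columns, and values given singly follow that order. Among TIGK libraries, letter C of 0 h and letter C of 6 h stood apart, with 26246 and 25161 genes listed with a read, against 21164 to 22799 in the other 16; results are given without them where they touch one. Letter C of TIGK at 24 h listed a usual number of genes but also differed more from its group: the chi-square of counts per gene was 13.5 and 17.9 between it and letters B and A, against 7.05 between A and B and 3.64 to 7.01 between HaCaT libraries of a group. For letter C of TIGK at 0 h and 6 h the same measure was 15.8 to 17.9. The 6 keratinocyte markers summed to 33676 to 37570 CPM (counts scaled to a common library size, here the TMM-scaled size) in HaCaT libraries and to 29919 to 39610 CPM in TIGK libraries. In these bulk samples fewer cells of a kind and less RNA per cell cannot be told apart.

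NLRP2, a sensor-family protein whose role in keratinocytes is little described, was the gene that separated the lines by the widest margin among the 10. It is encoded on chr19:54953130-55001142 (hg38, plus strand). The 2 transcription starts of NLRP2 in the RefSeq promoter table (GRCh38.p14) lie 1090 bases apart, and the 300-base windows around them are 99% identical, differing at 3 bases. The gene as counted begins at 54953130, upstream of both starts, and that end is not among the promoters listed. The 150 bases before each listed start are shown because they are RefSeq promoter sequence of the gene that divides the lines. The capital marks the base that differs there (G142C, counted from 1 at the 5′ end of the 300-base window, upstream start first). The stretches are chr19:54965134-54965283 and chr19:54966224-54966373, both on the plus strand.
NLRP2 upstream start: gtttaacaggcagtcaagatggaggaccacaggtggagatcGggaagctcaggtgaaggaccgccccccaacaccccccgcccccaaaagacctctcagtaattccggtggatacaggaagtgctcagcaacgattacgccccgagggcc
NLRP2 downstream start: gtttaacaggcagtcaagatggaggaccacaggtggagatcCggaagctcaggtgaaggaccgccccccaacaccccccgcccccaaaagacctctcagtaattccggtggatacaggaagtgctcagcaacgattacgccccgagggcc
The 250 bases before either start have a GC content of 55.6% and hold 10 CpG sites. Gene totals do not tell which start a read came from.

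NLRP2 stood at 185, 201 and 183 CPM in HaCaT at 0 h, at 197, 191 and 204 CPM at 6 h, and at 186, 188 and 211 CPM at 24 h. TIGK had 2 NLRP2 counts at 0 h, 1 at 6 h and 0 at 24 h, and the 3 counts all lay in the letter C libraries of TIGK. Every HaCaT library therefore lay above every TIGK library at each time. The ratio of HaCaT to TIGK, from summed counts, was 5699 at 0 h (95% exact counting interval 1577 to 47068) and 9736 at 6 h (1747 to 384604). At 24 h it was at least 978-fold, taking 3 counts as the floor of each TIGK library. Without the letter C libraries TIGK had 0 counts at the earlier times too, and the bounds were at least 1062-fold at 0 h and 1019-fold at 6 h. Intervals and floors cover counting error only. NLRP7, which overlaps the start of NLRP2 on the opposite strand, had 15 counts in all libraries against 27571 for NLRP2.

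The scratch was not followed by a detected change in NLRP2. HaCaT levels averaged 197 ± 6.47 CPM at 6 h and 189.8 ± 9.94 CPM at 0 h (SD, n = 3 each), a log2 fold change of 0.06 (95% interval -0.12 to 0.24; adjusted p = 0.95). At 24 h they averaged 195 ± 13.6 CPM, a log2 fold change of 0.04 against 0 h (95% interval -0.14 to 0.22; adjusted p = 0.79). Adjusted p-values here and elsewhere come from edgeR's two-sided quasi-likelihood test with Benjamini-Hochberg adjustment over all genes tested, and a gene was called when its adjusted p was under 0.05. The 3 genes whose levels followed NLRP2 most closely over the 18 libraries, by Pearson's r of log2 CPM, were TSPYL5 (r = 0.999), TFCP2 (0.999) and RBM23 (0.998). TFCP2, for example, stood at 41.2 to 46.8 CPM in the HaCaT group means and at 0.0655 to 0.0945 CPM in the TIGK group means. The 18 points fall into 2 lines that lie far apart, and r was not computed within a line.

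**Figure D1:**
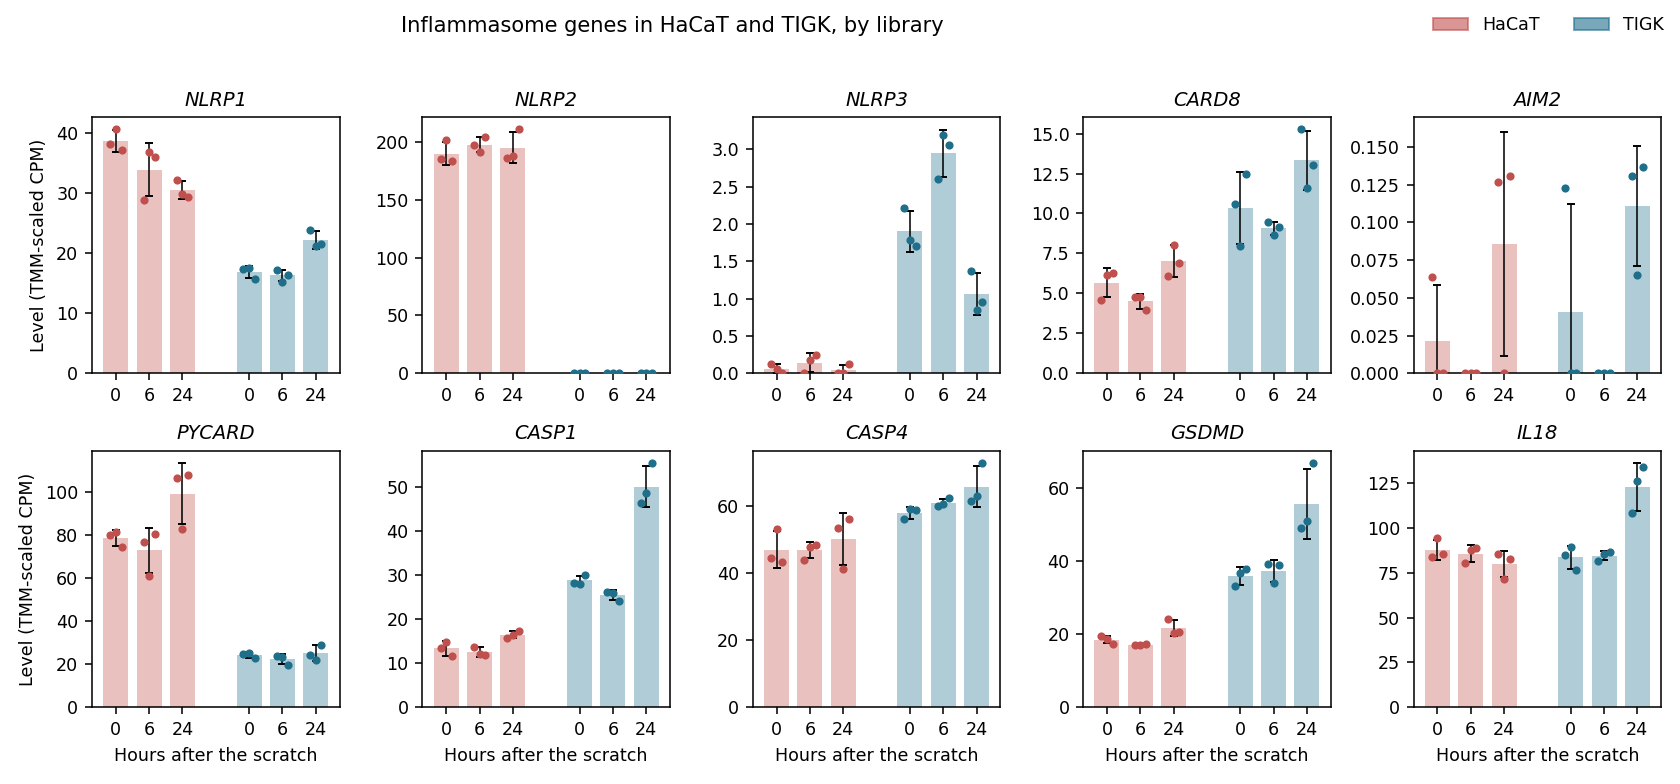
Level of each of the 10 genes in TMM-scaled CPM (each panel has its own linear axis from 0) at 0, 6 and 24 h, HaCaT left and TIGK right; bars are means of 3 libraries, error bars SD and points single libraries. NLRP2 is near 190 to 200 CPM in HaCaT and at 0 in TIGK, NLRP3 shows the opposite arrangement, and AIM2 rests on 0 to 2 counts per library.

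NLRP3, the sensor of membrane and ion disturbance, had the opposite arrangement at a far lower level. HaCaT libraries held 3, 7 and 2 NLRP3 counts in total at 0, 6 and 24 h. TIGK libraries stood at 2.21, 1.79 and 1.70 CPM at 0 h, 2.60, 3.2 and 3.06 CPM at 6 h, and 1.38, 0.849 and 0.957 CPM at 24 h. No HaCaT library reached the lowest TIGK library of the same time. HaCaT was 29.7-fold lower at 0 h (95% exact counting interval 9.91 to 146) and 24.3-fold lower at 24 h (6.36 to 206), and 19.5-fold lower in the fitted ratio at 6 h. Of 10 leukocyte markers, LYZ, TYROBP and AIF1 had no count in either line, and the list summed to 1.83 to 5.94 CPM in HaCaT libraries and 18.5 to 26.6 CPM in TIGK libraries. The TIGK sum was nearly all CSF1R (0.0609 to 0.929 CPM in HaCaT and 13.0 to 21.9 CPM in TIGK) and CD14 (0.391 to 1.67 CPM in HaCaT and 2.94 to 6.12 CPM in TIGK). ITGAM, FCER1G, CD3E and PTPRC went the other way. ITGAM had 205 counts in HaCaT and 23 in TIGK, FCER1G 60 and 4, CD3E 21 and 2, and PTPRC 23 and 9. SPI1 went the same way as the sum, with 1 count in HaCaT and 13 in TIGK. The part of such cells in the NLRP3 difference was not tested.

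Within TIGK, NLRP3 was higher at 6 h than at 0 h in all 3 libraries and lower at 24 h than at 0 h in all 3, but neither contrast was called (log2 fold change 0.64, SE 0.47, adjusted p = 0.62 at 6 h; -0.83, SE 0.50, adjusted p = 0.22 at 24 h). With limma on the authors' FPKM the change at 24 h was called (adjusted p = 0.025 with a pseudocount of 0.1 and 0.0063 with 1), and that at 6 h with a pseudocount of 1 (adjusted p = 0.022). In a contrast of 24 h with 6 h, added after seeing the data, NLRP3 fell in TIGK, to 1.06 ± 0.278 CPM at 24 h against 2.95 ± 0.314 CPM at 6 h (SD, n = 3 each; log2 fold change -1.47, SE 0.50, adjusted p = 0.023). That call was lost when any of 4 single libraries was left out, letters B and C at 6 h and at 24 h (adjusted p = 0.061 to 0.076), or letter C of TIGK at both 0 h and 6 h (adjusted p = 0.080).

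NLRP1 (chr17:5499427-5619424, minus strand) senses viral proteases and ribosome stress in keratinocytes and is held in check by the peptidases DPP8 and DPP9. Its levels in the lines moved toward each other by 24 h. HaCaT libraries stood at 38.3, 40.6 and 37.1 CPM at 0 h, 28.8, 36.8 and 36.0 CPM at 6 h, and 32.2, 29.9 and 29.4 CPM at 24 h. TIGK libraries stood at 17.3, 17.5 and 15.7 CPM at 0 h, 17.2, 15.3 and 16.4 CPM at 6 h, and 23.8, 21.2 and 21.5 CPM at 24 h. HaCaT lay above TIGK at every time without overlap, by 2.30-fold at 0 h, 2.08-fold at 6 h and 1.38-fold at 24 h.

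Against 0 h, NLRP1 fell at 24 h in HaCaT (log2 fold change -0.34, SE 0.10, adjusted p = 0.013) and rose in TIGK (0.40, SE 0.11, adjusted p = 0.0062), with no overlap between 24 h and 0 h in either line. The difference between the 24 h responses, HaCaT minus TIGK, was -0.74 on the log2 scale (SE 0.15, adjusted p = 0.0014) and was called under all 20 alternatives run. In HaCaT the fall was no longer called without letter B at 0 h (adjusted p = 0.061), without letter C at 24 h (adjusted p = 0.057) or with limma and a pseudocount of 0.1 (adjusted p = 0.051). At 6 h NLRP1 was not called in HaCaT (-0.19, 95% interval -0.40 to 0.02, adjusted p = 0.73) or in TIGK (-0.05, -0.27 to 0.18, adjusted p = 0.92). The authors' deposited table for HaCaT at 24 h lists NLRP1 with a log2 fold change of -0.34; their table for TIGK at 24 h does not list it. These tables hold no adjusted p over 0.00991 in HaCaT and 0.00997 in TIGK at 24 h.

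CARD8, a sensor related to NLRP1 that shares its autoproteolytic domain and its restraint by DPP9, was low in both lines. It averaged 5.68 ± 0.929, 4.5 ± 0.466 and 7.02 ± 0.978 CPM in HaCaT at 0, 6 and 24 h, and 10.3 ± 2.27, 9.09 ± 0.408 and 13.3 ± 1.83 CPM in TIGK (SD, n = 3 each). HaCaT lay below TIGK at each time, by 1.83-fold, 2.02-fold and 1.90-fold at 0, 6 and 24 h. Neither line's change from 0 h was called at 24 h (log2 fold change 0.30 in HaCaT, adjusted p = 0.25; 0.36 in TIGK, adjusted p = 0.13); in TIGK the call appeared without letter C at 0 h (adjusted p = 0.047). In the added contrast of 24 h with 6 h CARD8 rose in HaCaT (0.64, SE 0.19, adjusted p = 0.012) and in TIGK (0.55, SE 0.18, adjusted p = 0.017), but the HaCaT call was lost without letter C at 6 h or letter B at 24 h (adjusted p = 0.061 and 0.066) and the TIGK call without letter B at 6 h or letter A at 24 h (adjusted p = 0.060 and 0.093). The gene overlaps ZSWIM9 on the opposite strand, which had 7327 counts against 2500 for CARD8, and whether reads were counted by strand is not given in the sources used here, so the CARD8 values are uncertain.

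AIM2, a sensor of cytosolic DNA, had 12 counts in all 18 libraries and no fold is given. HaCaT held 1, 0 and 4 counts at 0, 6 and 24 h and TIGK 2, 0 and 5. A count of 0 allows up to 3 counts per library. AIM2 is shown with its promoter because it carries the core of an interferon-stimulated response element, GAAA, any 2 bases, then GAAA, as does GBP1, a guanylate-binding protein that rose in both lines at 24 h. The motif was searched on both strands of the 250 bases before each start, and 3.02% of 35116 promoters hold it. Of the 10 genes, 6 matched the promoter table, with 11 promoters, and AIM2 and CARD8 hold the motif in at least 1 of theirs. In CARD8 it is the same site in 2 overlapping windows, 47 and 66 bases before their starts. The 3.02% is a share of promoters, whereas the counts here and below are of genes with the motif in any window. A gene with several windows has more places for a match, so nothing is read from these counts. The motif, in capitals, begins 190 bases before the start of AIM2 (chr1:159076907-159076996, minus strand) and 127 bases before that of GBP1 (chr1:89065286-89065375, minus strand), in both cases on the strand opposite to the gene.
AIM2: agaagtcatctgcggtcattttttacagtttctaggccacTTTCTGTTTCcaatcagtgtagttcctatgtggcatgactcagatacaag
GBP1: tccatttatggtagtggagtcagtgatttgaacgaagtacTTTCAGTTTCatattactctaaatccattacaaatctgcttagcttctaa
Of the 31 genes of the wider pathway in the promoter table, 6 hold the motif in at least 1 window: GBP1, IL18BP, IL1RN, IL18R1, IL18RAP and CASP5. IL18BP, which fell in TIGK at 24 h, holds it in 1 of its windows, 67 bases before the start, and GBP3, IFI16 and TXNIP, which rose there, hold it in none. A match of letters is a description and not a site of binding.

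PYCARD (chr16:31201485-31203450, minus strand) encodes ASC, the adaptor that bridges sensors of the NLRP3 and AIM2 kind to caspase-1. HaCaT libraries stood at 79.8, 81.5 and 74.6 CPM at 0 h, 77.0, 60.9 and 80.7 CPM at 6 h, and 106, 82.7 and 108 CPM at 24 h. TIGK averaged 24.2 ± 1.3, 22.3 ± 2.40 and 25.1 ± 3.60 CPM at 0, 6 and 24 h (SD, n = 3 each). HaCaT lay above TIGK by 3.26-fold, 3.27-fold and 3.95-fold at the successive times, with no overlap.

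In HaCaT, PYCARD rose at 24 h, to 99.1 ± 14.2 CPM against 78.6 ± 3.64 CPM at 0 h (log2 fold change 0.33, SE 0.12, adjusted p = 0.029), and the lowest library at 24 h was just above the highest at 0 h. The call was lost without letter A or letter C of either time (adjusted p = 0.066 to 0.14). In TIGK the change was 0.06 (95% interval -0.20 to 0.32, adjusted p = 0.78), and the difference between the responses was not called (0.28, 95% interval -0.07 to 0.63, adjusted p = 0.32). The authors' deposited table for HaCaT at 24 h lists PYCARD with a log2 fold change of 0.34. PYCARD-AS1, on the opposite strand, had 27 counts in all.

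CASP1 (chr11:105025443-105035250, minus strand) encodes caspase-1, the protease at the centre of the complex, and rose in TIGK at 24 h. HaCaT libraries stood at 13.5, 14.9 and 11.7 CPM at 0 h, 13.8, 12 and 11.9 CPM at 6 h, and 15.7, 16.4 and 17.4 CPM at 24 h. TIGK libraries stood at 28.2, 28.0 and 30.0 CPM at 0 h, 26.2, 26.0 and 24.1 CPM at 6 h, and 46.3, 48.6 and 55.3 CPM at 24 h. HaCaT lay below TIGK without overlap, by 2.16-fold at 0 h, 2.02-fold at 6 h and 3.04-fold at 24 h.

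In TIGK at 24 h CASP1 was 1.74-fold higher than at 0 h (log2 fold change 0.80, SE 0.10, adjusted p = 2.1e-06), a call kept under all 14 alternatives run. In HaCaT it was 1.23-fold higher (0.30, SE 0.11, adjusted p = 0.047), and 9 of 14 alternatives lost that call. These were no filter on low counts (adjusted p = 0.17), fitting only the groups compared (0.069), a replicate block (0.055), leaving out letter C of TIGK at both 0 h and 6 h (0.056), and leaving out 1 HaCaT library, letter A or C at 0 h or any of the 3 at 24 h (adjusted p = 0.061 to 0.25). The difference between the responses was -0.50 (SE 0.16, adjusted p = 0.035), lost without a filter on low counts (adjusted p = 0.15) and without any of 7 single libraries: letters A and B of TIGK at 0 h, letter C of TIGK at 24 h, letters A and B of HaCaT at 0 h and letters A and B of HaCaT at 24 h (adjusted p = 0.066 to 0.12). The authors' deposited table for TIGK at 24 h lists CASP1 with a log2 fold change of 0.82, and their table for HaCaT at 24 h does not list it. CARD16, a near-identical neighbour that encodes a CARD-only protein and can share reads with CASP1, stood at 3.23 ± 0.734 CPM in TIGK at 24 h and 1.43 ± 0.522 CPM at 0 h; it is named here for its likeness to CASP1, outside the rule for naming genes. The genes whose levels followed CASP1 most closely over the 18 libraries were PARP10 (r = 0.993), IFIT1 (0.986) and CHMP5 (0.986). IFIT1 averaged 419 CPM in TIGK at 24 h and 66.7 CPM at 0 h, and 5.25 to 7.06 CPM in the HaCaT group means. As for NLRP2, r spans both lines and was not computed within a line.

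CASP4, the caspase that binds bacterial lipopolysaccharide in the cytosol and cleaves gasdermin D without a sensor complex, is the other caspase of the set. It averaged 47.0 ± 5.46, 46.8 ± 2.39 and 50.3 ± 7.84 CPM in HaCaT at 0, 6 and 24 h, and 58.1 ± 1.69, 61.1 ± 1.12 and 65.8 ± 6.12 CPM in TIGK (SD, n = 3 each). HaCaT lay below TIGK by 1.23-fold to 1.31-fold without overlap. No change in time was called in either line: at 24 h against 0 h the log2 fold change was 0.10 in HaCaT (95% interval -0.12 to 0.31, adjusted p = 0.52) and 0.18 in TIGK (-0.03 to 0.39, adjusted p = 0.19).

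GSDMD, on chromosome 8, encodes gasdermin D, the pore-forming executor of pyroptosis. HaCaT libraries stood at 19.5, 18.6 and 17.5 CPM at 0 h, 17, 17 and 17.5 CPM at 6 h, and 24.2, 20.3 and 20.7 CPM at 24 h. TIGK libraries stood at 33.4, 36.7 and 38.0 CPM at 0 h, 39.3, 34.0 and 39.1 CPM at 6 h, and 49.2, 51.1 and 66.9 CPM at 24 h. HaCaT lay below TIGK without overlap, by 1.94-fold, 2.18-fold and 2.56-fold at 0, 6 and 24 h.

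GSDMD rose in TIGK at 24 h, 1.55-fold against 0 h (log2 fold change 0.63, SE 0.11, adjusted p = 9.3e-05), under all 14 alternatives run. In HaCaT the change of 0.23 was not called (95% interval -0.02 to 0.47, adjusted p = 0.15). The difference between the responses, -0.40, was not called either (95% interval -0.73 to -0.07, adjusted p = 0.11). The authors' deposited table for TIGK at 24 h lists GSDMD with a log2 fold change of 0.65.

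IL18 (chr11:112143251-112164117, minus strand) encodes interleukin-18, which epithelial cells store as a precursor for caspase-1 to cleave. It was the 1 gene of the 9 tested on which the lines overlapped at 0 h and at 6 h and lay apart at 24 h. HaCaT libraries stood at 83.9, 94.3 and 85.3 CPM at 0 h, 80.3, 87.9 and 89.0 CPM at 6 h, and 85.3, 71.8 and 82.5 CPM at 24 h. TIGK libraries stood at 84.7, 89.4 and 76.6 CPM at 0 h, 81.7, 85.3 and 86.6 CPM at 6 h, and 108, 126 and 134 CPM at 24 h. At 24 h all HaCaT libraries lay below all TIGK libraries, 1.54-fold lower in the fitted ratio.

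IL18 rose in TIGK at 24 h, to 123 ± 13.2 CPM against 83.6 ± 6.51 CPM at 0 h, 1.47-fold (log2 fold change 0.56, SE 0.09, adjusted p = 2.6e-05). In HaCaT the change was -0.14 (95% interval -0.32 to 0.05, adjusted p = 0.26). The difference between the responses was -0.69 (SE 0.13, adjusted p = 0.0004) and was called under all 20 alternatives run. The authors' deposited table for TIGK at 24 h lists IL18 with a log2 fold change of 0.58. The genes that followed IL18 most closely over the 18 libraries were IFITM3 (r = 0.907), B2M (0.898) and TYMP (0.895). IFITM3 averaged 535 CPM in TIGK at 24 h and 115 to 150 CPM in the other groups, and r was not computed within a line.

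Per gene length, on the authors' FPKM, PYCARD was the highest of the 10 in HaCaT at 0 h, at 46.5 ± 2.06, followed by IL18 at 32.8 ± 2.02 and NLRP2 at 29.5 ± 1.45. CASP4 (6.37 ± 0.719), GSDMD (3.56 ± 0.200), CASP1 (3.55 ± 0.424) and NLRP1 (2.97 ± 0.128) formed a middle tier, in which GSDMD and CASP1 did not differ beyond their spread. In TIGK at 0 h IL18 was the highest, at 31.3 ± 2.42, followed by PYCARD at 14.3 ± 0.770, CASP4 at 7.87 ± 0.215, CASP1 at 7.65 ± 0.295 and GSDMD at 6.93 ± 0.448 (SD, n = 3 each). NLRP1 stood at 1.29 ± 0.0743, CARD8 at 0.788 ± 0.174 and NLRP3 at 0.393 ± 0.0572 in TIGK at 0 h. By 24 h in TIGK, CASP1 had reached 13.4 ± 1.21 FPKM and GSDMD 10.8 ± 1.84 FPKM, beside PYCARD at 15 ± 2.12. Ranks between genes rest on a single length per gene, 12808 bases for NLRP1 and 1661 for PYCARD, for example. Whether these are the lengths of the transcripts expressed was not tested.

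**Figure D2:**
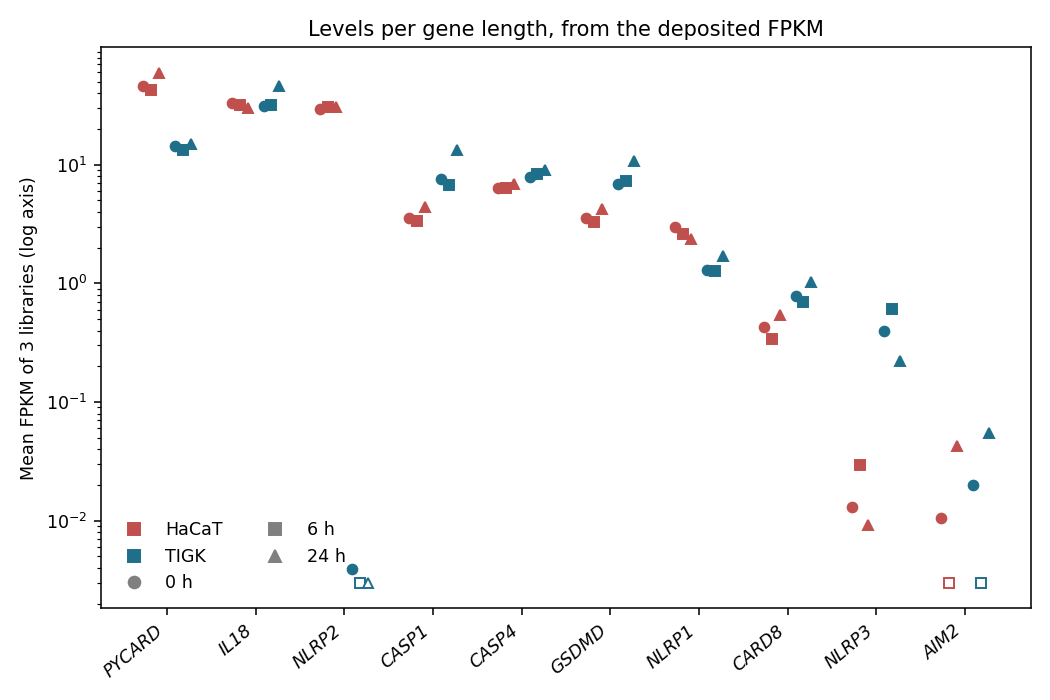
Mean of the authors' FPKM over 3 libraries (log axis) for each of the 10 genes, HaCaT left of TIGK within a gene and symbols for 0, 6 and 24 h; open symbols at the bottom are means at or below 0.003 FPKM. PYCARD, NLRP2 and NLRP1 lie higher in HaCaT, CASP1, GSDMD, CARD8 and NLRP3 lower, and IL18 coincides in the lines until 24 h.

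Taking the 9 tested genes together, 3 lay above TIGK in HaCaT without overlap at 0 h (NLRP1, NLRP2 and PYCARD), 5 below (NLRP3, CASP1, CASP4, CARD8 and GSDMD) and IL18 overlapped. Of all genes tested, 32.4% lay above and 35.8% below in this way at 0 h, so separation of the lines is common and nothing is read from the count. The counts were the same at 6 h, where 32.4% of all genes lay above and 34.9% below. At 24 h 3 genes lay above and 6 below, IL18 having joined them, beside 30.3% above and 34% below among all genes tested. Fibroblast markers, of which PDGFRA had no count in HaCaT, also differed between the lines, summing to 21.0 to 40.8 CPM in HaCaT libraries and 237 to 435 CPM in TIGK libraries over the list of 7. The TIGK sum was almost all COL1A1 and DCN. COL1A1 stood at 20.7 to 39.4 CPM in HaCaT and 144 to 198 CPM in TIGK. DCN stood at 0.244 to 0.718 CPM in HaCaT and 74.9 to 257 CPM in TIGK. LUM had 3 counts in HaCaT and 465 in TIGK, COL3A1 13 and 107, PDGFRB 50 and 239, and PDGFRA 0 and 26. COL1A2 alone went the other way, with 4 counts in all HaCaT libraries and 1 in all TIGK libraries. The part of these markers in the line differences was not tested.

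At 6 h no inflammasome gene was called in either line by edgeR, and 0 of 9 had an unadjusted p under 0.05 in HaCaT or in TIGK. In HaCaT, 0.201% of all genes tested were called either way at 6 h; in TIGK, 2.5% were called up and 1.12% down. DESeq2 called 0 of 9 in each line as well. The 6 h responses of the lines did not differ by the test for any of the 9 (0 with an unadjusted p under 0.05 and 0 called by DESeq2), where 0.752% of all genes tested were called.

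At 24 h the call took in 3 of 9 genes in HaCaT, with CASP1 and PYCARD up and NLRP1 down, beside 15.5% of all genes up and 15.9% down. In TIGK it took in 4 of 9, with CASP1, GSDMD, IL18 and NLRP1 up and 0 down, beside 15.3% of all genes up and 17% down. The median log2 fold change of the 8 genes above the floor of 3 counts in a library was 0.16 in HaCaT and 0.38 in TIGK, with medians over all genes above it of 0.01 and -0.01. Leaving out 1 HaCaT library at 0 h or 24 h left 0 to 2 genes called in HaCaT: 0 without letter C at 24 h, 1 without letter A at 24 h or letters A or C at 0 h, and 2 without letter B of either time. Those fits called 4575 to 4720 of all genes in HaCaT at 24 h, against 5471 with all libraries. The 4 calls in TIGK held under the 14 alternatives run. Letter C at 24 h held the highest CASP1, GSDMD and IL18 of its group; without it the log2 fold changes were 0.72 for CASP1 (adjusted p = 2.9e-05), 0.48 for GSDMD (0.0012), 0.49 for IL18 (0.00025) and 0.42 for NLRP1 (0.010).

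Summed levels of markers of other cell types also lay higher at 24 h than at 0 h in both lines, without overlap. A few genes carried most of each sum, and some markers of the same lists went the other way. In TIGK the fibroblast markers summed to 391 to 435 CPM at 24 h and 237 to 274 CPM at 0 h, with DCN at 230 ± 23.6 and 100.4 ± 19.8 CPM (SD, n = 3 each). The keratinocyte markers there summed to 35277 to 39610 CPM at 24 h and 29919 to 31150 CPM at 0 h, and the leukocyte markers to 22.6 to 25.9 and 18.5 to 20.3 CPM. Of these, CSF1R was higher at 24 h (20.4 ± 1.34 against 13.7 ± 0.652 CPM) and CD14 lower (3.30 ± 0.322 against 5.31 ± 1.02 CPM). In HaCaT the fibroblast markers summed to 37.7 to 40.8 CPM at 24 h and 24.9 to 29.1 CPM at 0 h, and the leukocyte markers to 4.89 to 5.94 and 2.37 to 3.71 CPM, while the keratinocyte sums overlapped. The fibroblast sum was nearly all COL1A1, with means of 38.2 CPM at 24 h and 26.7 CPM at 0 h. ITGAM averaged 3.08 CPM in HaCaT at 24 h and 0.629 CPM at 0 h, while the CD14 mean was lower (0.659 against 1.16 CPM). Melanocyte markers, among which TYR had no count, summed to 7.75 to 9.20 CPM at 24 h and 4.68 to 5.39 CPM at 0 h in HaCaT, and to 21.0 to 27.7 and 13.0 to 15.4 CPM in TIGK. Endothelial markers summed to 6.29 to 8.15 CPM at 24 h and 2.72 to 3.27 CPM at 0 h in HaCaT, and to 4.99 to 6.86 and 1.62 to 3.63 CPM in TIGK. The HaCaT sum was nearly all VWF, with means of 7.47 CPM at 24 h and 2.95 CPM at 0 h. In TIGK the KDR mean was higher at 24 h (4.53 against 1.12 CPM) and the PECAM1 mean lower (0.309 against 0.988 CPM). The part of these markers in the 24 h changes was not tested.

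The 24 h responses differed between the lines for 3 of 9 genes, NLRP1, CASP1 and IL18, all lower in HaCaT than in TIGK, where 6.45% of all genes tested were called down and 7.07% up.

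**Figure D3:**
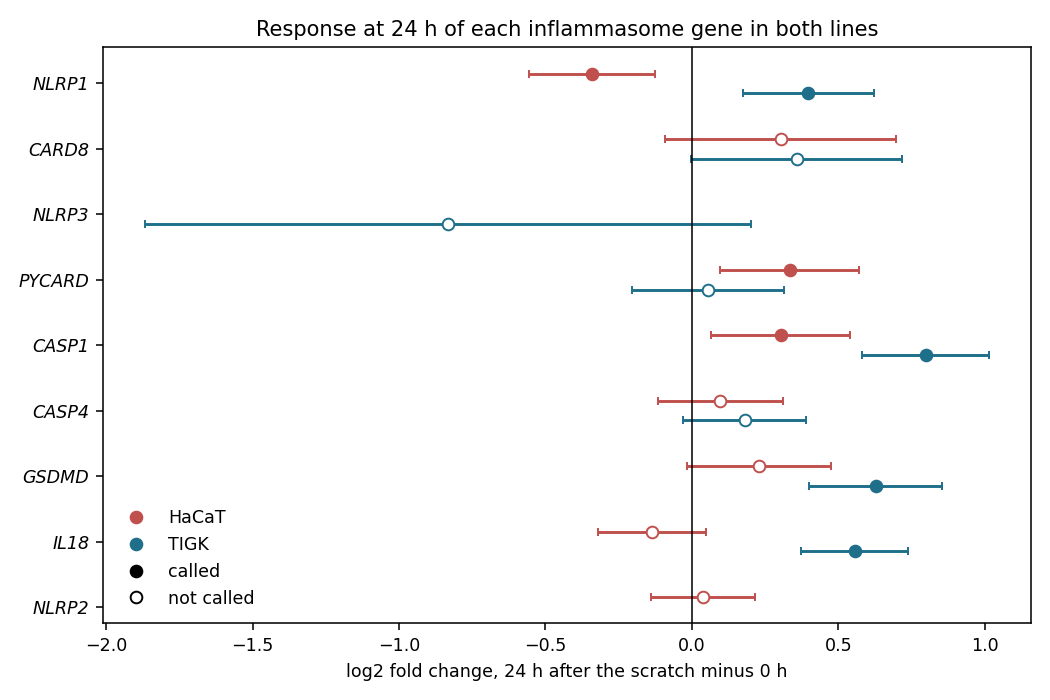
log2 fold change at 24 h against 0 h (dots, edgeR) with its 95% interval (lines) for each tested gene, HaCaT above TIGK within a gene; filled dots were called at an adjusted p under 0.05. NLRP1 lies on opposite sides of 0 in the lines; IL18 and GSDMD were called in TIGK alone, without a called difference between the lines for GSDMD. NLRP2 in TIGK, NLRP3 in HaCaT and AIM2 are not drawn because of their low counts.

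In the added contrast of 24 h with 6 h, 4 of 9 genes rose in HaCaT, PYCARD (log2 fold change 0.44, adjusted p = 0.0037), CASP1 (0.39, adjusted p = 0.0096), CARD8 and GSDMD (0.34, adjusted p = 0.028), and 0 fell, beside 17.6% of all genes up and 18.1% down. NLRP1, which had fallen against 0 h, was not called against 6 h (-0.15, 95% interval -0.37 to 0.06, adjusted p = 0.27). The GSDMD call was lost without a filter on low counts (adjusted p = 0.060) and without letters A, B or C at 6 h or letter A at 24 h (adjusted p = 0.059 to 0.16). In TIGK 5 of 9 rose, CASP1 (0.98, adjusted p = 9e-08), GSDMD (0.57, adjusted p = 0.00022), CARD8, IL18 (0.54, adjusted p = 3.3e-05) and NLRP1 (0.44, adjusted p = 0.0024), and NLRP3 fell, beside 17.8% of all genes up and 18.9% down. These contrasts share their 24 h libraries with those against 0 h.

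Around these genes, 43 others of the pathway were listed, of which 30 passed the filter on low counts. At 0 h 11 of the 30 lay above TIGK in HaCaT without overlap, 13 below and 6 overlapped, beside 32.4% above and 35.8% below among all genes tested. In HaCaT at 24 h 8 rose and 3 fell, beside 15.5% up and 15.9% down among all genes, with a median log2 fold change of -0.05 (0.01 over all genes). In TIGK 10 rose and 2 fell at 24 h, beside 15.3% up and 17% down among all genes, with a median of 0.23 over the 29 genes above the floor (-0.01 over all genes). At 6 h 0 were called in HaCaT (2 with an unadjusted p under 0.05, and 0 by DESeq2), and in TIGK TXNIP rose and IFI16 fell, beside 2.5% up and 1.12% down among all genes. The TIGK count at 6 h was kept under only 7 of 14 alternatives.

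Both interleukin-1 genes rose in HaCaT at 24 h. IL1A, which encodes interleukin-1α, an alarmin that dying keratinocytes release, stood at 33.0, 35.1 and 35.6 CPM in HaCaT at 24 h and at 4.29, 2.79 and 2.99 CPM at 0 h (log2 fold change 3.36, SE 0.19, adjusted p = 2.2e-12). IL1B, which encodes the interleukin-1β precursor cleaved by caspase-1, stood at 11.6, 9.41 and 15.5 CPM at 24 h and at 2.88, 1.92 and 1.68 CPM at 0 h (2.49, SE 0.27, adjusted p = 1e-07). In TIGK neither was called at 24 h, with IL1A at 6.70 ± 0.955 against 5.34 ± 0.430 CPM and IL1B at 3.76 ± 0.682 against 4.30 ± 0.613 CPM at 0 h. The difference between the responses was called for IL1A (3.04, SE 0.27, adjusted p = 2.3e-08) and IL1B (2.68, SE 0.38, adjusted p = 1.9e-05). In the same contrast IL18 was called at -0.69, of the opposite sign. IL18BP, the secreted protein that binds and blocks interleukin-18, fell in TIGK at 24 h, to 9.83 ± 2.48 CPM against 14.2 ± 2.05 CPM at 0 h (-0.54, SE 0.18, adjusted p = 0.023). In HaCaT it averaged 7.86 ± 0.816 CPM at 24 h and 8.91 ± 1.35 CPM at 0 h and was not called. The difference between the IL18BP responses was not called either.

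Among genes of membrane rupture and caspase control, NINJ1, whose protein tears the plasma membrane after gasdermin pores form, rose in HaCaT, to 54.4 ± 3.76 CPM at 24 h against 22.6 ± 0.933 CPM at 0 h (1.27, SE 0.12, adjusted p = 6.3e-09). Its response exceeded that of TIGK by 1.38 (SE 0.16, adjusted p = 1.7e-06). SERPINB1, a serpin that restrains inflammatory caspases, fell in HaCaT (-0.77, SE 0.19, adjusted p = 0.0022), to 16.3 ± 1.02 CPM at 24 h against 27.8 ± 0.854 CPM at 0 h. In TIGK SERPINB1 stood at 7.06 ± 1.74 CPM at 24 h and 4.05 ± 1.32 CPM at 0 h (0.81, adjusted p = 0.0065), and the responses differed by -1.58 (SE 0.29, adjusted p = 0.00045). CASP8, the initiator caspase that can also process gasdermins, fell in HaCaT (-0.30, SE 0.11, adjusted p = 0.039), as did DPP9, the peptidase that restrains NLRP1 and CARD8 (-0.32, SE 0.08, adjusted p = 0.0033). In TIGK the change of DPP9 was -0.20 (adjusted p = 0.064), and the difference between the responses was not called (-0.12, adjusted p = 0.57). CASP8 averaged 39.6 ± 1.72 CPM in TIGK at 24 h and 39.0 ± 5.20 CPM at 0 h. Neither that change nor the difference between the CASP8 responses was called.

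Among sensors and cofactors, IFI16, a DNA sensor of the AIM2 family, stood at 161, 158 and 169 CPM in TIGK at 24 h and at 65.5, 53.0 and 55.6 CPM at 0 h (1.49, SE 0.10, adjusted p = 2.7e-11), after a fall at 6 h (-0.38, SE 0.10, adjusted p = 0.026). In HaCaT it averaged 98.6 ± 5.45 CPM at 24 h and 104 ± 12.4 CPM at 0 h and was not called, and the responses differed by -1.56 (SE 0.13, adjusted p = 1.4e-08). TXNIP, a thioredoxin-binding protein linked to NLRP3 activation, rose in TIGK at 6 h (0.65, SE 0.11, adjusted p = 0.00074) and at 24 h (1.77, SE 0.12, adjusted p = 3.2e-11), where it reached 271 ± 28.1 CPM against 79.6 ± 14 CPM at 0 h. TXNIP was called up in HaCaT at 24 h as well, at 270 ± 2.81 CPM against 217 ± 27.3 CPM at 0 h. NLRP10, an NLR without a ligand-sensing repeat domain, fell in TIGK, to 1.51 ± 0.230 CPM at 24 h against 7.39 ± 0.302 CPM at 0 h (-2.29, SE 0.35, adjusted p = 1.5e-05). In HaCaT NLRP10 averaged 0.301 ± 0.204 CPM at 24 h and 0.769 ± 0.455 CPM at 0 h, and the difference between the responses was not called. P2RX7, the ATP-gated channel upstream of NLRP3, was chosen after its values were seen: it stood at 1.69 ± 0.519, 1.63 ± 0.140 and 2.74 ± 0.492 CPM in HaCaT at 0, 6 and 24 h and had no count in any TIGK library, the reverse of NLRP3.

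Of 4 tested guanylate-binding proteins, interferon-induced GTPases that open the way for caspase-4 at bacterial surfaces, 3 rose at 24 h in HaCaT and 3 in TIGK. Of all genes tested, 15.5% were called up in HaCaT and 15.3% in TIGK at 24 h. GBP1, whose promoter stretch is given beside that of AIM2, stood at 4.66 ± 0.489 CPM in HaCaT at 24 h and 1.86 ± 0.411 CPM at 0 h (1.32, SE 0.18, adjusted p = 3.2e-06). In TIGK it stood at 61.0 ± 4.05 CPM at 24 h and 31.2 ± 3.09 CPM at 0 h (0.97, SE 0.11, adjusted p = 3.6e-07). GBP3 rose in TIGK by 1.02 (SE 0.12, adjusted p = 3e-07) and in HaCaT by 0.48 (SE 0.12, adjusted p = 0.0038), and these responses differed by -0.54 (SE 0.17, adjusted p = 0.033). In all, the 24 h responses differed between the lines for 9 of the 30 genes, 3 higher in HaCaT (IL1A, IL1B and NINJ1) and 6 lower (IFI16, TXNIP, SERPINB1, MAP3K20, GSDME and GBP3), beside 7.07% higher and 6.45% lower among all genes tested.

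**Figure D4:**
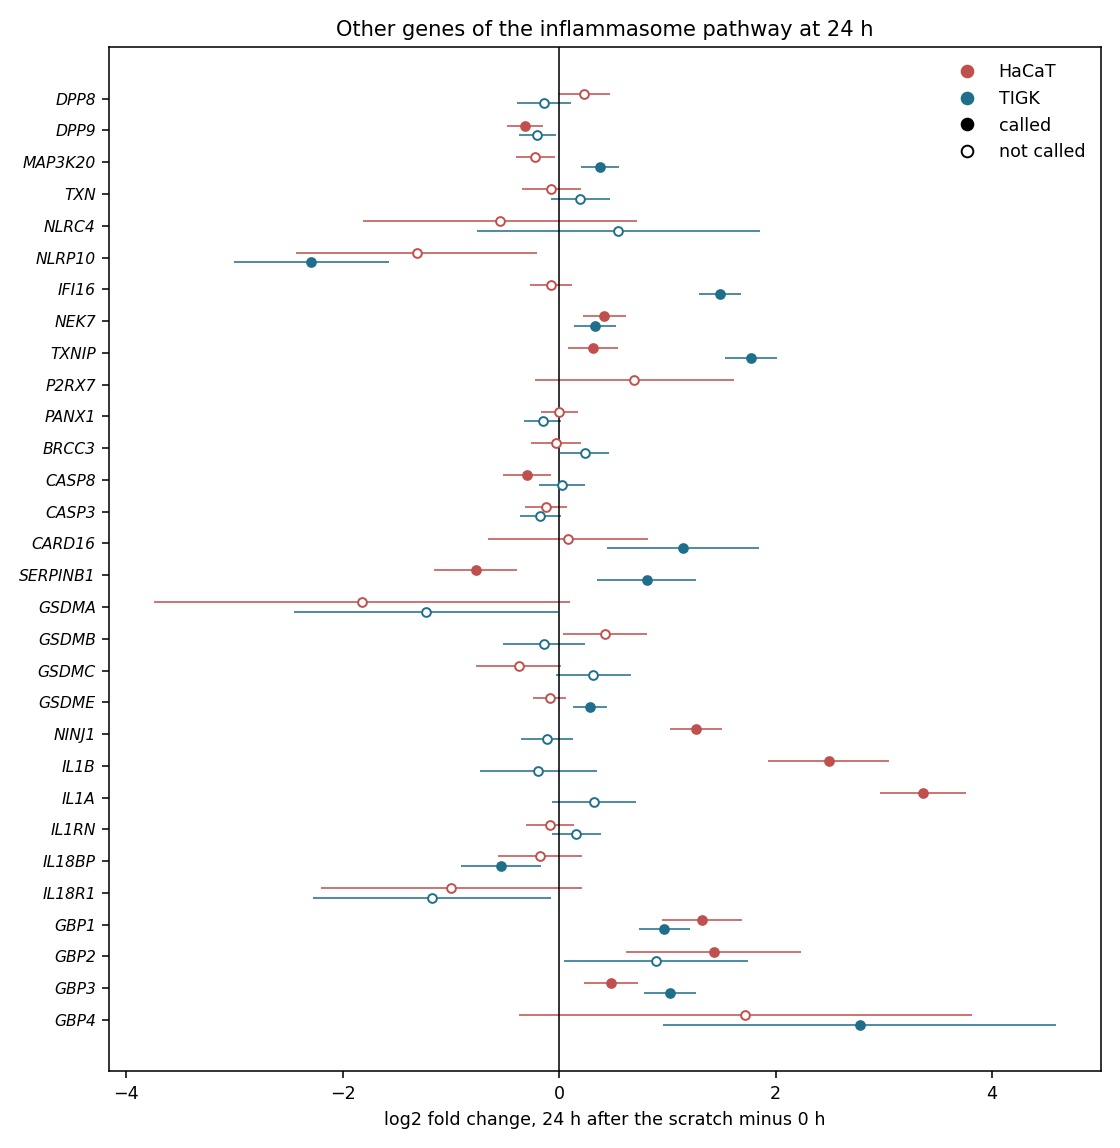
log2 fold change at 24 h against 0 h (dots, edgeR) with its 95% interval (lines) for the 30 tested genes of the wider pathway, HaCaT above TIGK within a gene; filled dots were called. IL1A, IL1B and NINJ1 were called in HaCaT, IFI16 in TIGK, and TXNIP, GBP1 and GBP3 in both lines; P2RX7 in TIGK is not drawn because it had no count.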

How the data were processed

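RNA from HaCaT and TIGK cells was sequenced in 18 libraries. The genome build hg38 and the tools featureCounts 1.5.0-p3, HISAT2 2.0.5 and StringTie 1.3.3b are named in the submitters' processing notes; the strand setting is not given in the sources used here. The authors deposited read counts per gene, FPKM (each count over gene length and 1 constant per column), and comparison tables with log2 fold changes, test scores and p-values. Every gene in the authors' tables for the 4 responses has the sign of the count-based estimate.

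Counts were tested with edgeR 4.0.16 (R 4.3.3): filterByExpr, TMM, a quasi-likelihood fit of 6 group means with 12 residual degrees of freedom, prior count 0.125. Intervals are 95%. The SE is the absolute log2 fold change over the square root of the F statistic. Simulated counts with known changes tested the procedure. Alternatives were DESeq2 1.42.0, limma 3.58.1 on log2(FPKM + 0.1) and log2(FPKM + 1), other size factors, no filter, only the groups compared, a replicate block, and libraries left out.

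File columns carry letters A to C that the labels do not tie to replicate numbers, so libraries are named by letter. Same-letter libraries of TIGK at 0 h and 6 h deviated together from their group means (r = 0.447, 0.359 and 0.755 over 9738 genes). Those means include the letter C libraries that stood apart, so the r values of the letters are not independent. In the other pairs of times r was -0.222 to 0.236. The edgeR fit of 6 group means did not pair the letters, and a replicate block by letter was run only as an alternative. Nothing says that the 3 libraries of a group came from separate cultures; if not, p-values measure a spread that may be technical. The 10 genes, the pathway list and the markers were chosen with earlier results of these data known. Named pathway genes are, for each response within a line, up to 4 called genes per direction with the lowest adjusted p. For NLRP2, CASP1 and IL18 the 3 protein-coding genes with the highest r were named, of 13932 compared. Promoter sequences are RefSeq's (GRCh38.p14).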

Additional observations from a re-analysis of the deposited data

Results flagged for a closer look

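The 24 h response differed between the lines by the test of the difference itself for 3 of the 9 tested genes (HaCaT response minus TIGK response, log2 scale, edgeR), all lower in HaCaT, beside 7.07% higher and 6.45% lower among all genes tested. For NLRP1 the difference was -0.74 (adjusted p = 0.0014). At 24 h all libraries lay below those at 0 h in HaCaT and above them in TIGK. The fall within HaCaT kept its call under 11 of 14 alternatives. For IL18 it was -0.69 (adjusted p = 0.0004): all 3 TIGK libraries at 24 h lay above those at 0 h, while the HaCaT libraries of the 2 times overlapped. For CASP1 it was -0.50 (adjusted p = 0.035): all 3 libraries at 24 h lay above those at 0 h in both lines, and the larger rise was in TIGK. The call for CASP1 was lost under 8 of 20 alternatives (adjusted p = 0.066 to 0.15), and those for NLRP1 and IL18 were kept under all 20.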

How the results depend on the processing

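Of the recomputed tests of inflammasome genes in time, 1067 stayed on their side of the threshold, 38 lost a call and 5 gained one, and 0 called values changed sign; the 198 recomputed ratios between the lines moved by less than the spread between libraries. Leaving out 1 library gave 0 to 2 inflammasome genes called in HaCaT at 24 h (3 with all libraries). Of all genes it called 4575 to 4720 there (5471 with all libraries). In HaCaT at 24 h against 6 h it called 2 to 4 inflammasome genes and 8 to 13 pathway genes. With all libraries these were 4 and 13, and of all genes 5226 to 5540 were called, against 6212. In TIGK at 6 h it called 1 to 2 pathway genes, beside 350 to 817 of all genes (630 with all libraries). The line difference in the 6 h response had 0 to 1 pathway genes called, beside 68 to 260 of all genes (131 with all). Fitting only the groups compared gave 2 pathway genes in HaCaT at 6 h and 1 in TIGK at 6 h. Of all genes it called 200 and 359. In TIGK at 6 h, limma with a pseudocount of 1 called 1 inflammasome gene, NLRP3, and limma with either pseudocount called 1 pathway gene. Leaving out both letter C libraries of TIGK left 1 pathway gene as well. Of all genes, limma called 546 there with a pseudocount of 0.1 and 650 with 1. Without the letter C libraries 515 of all genes were called. For the line difference in the 6 h response DESeq2, no filter, the replicate block and leaving out the letter C libraries each called 1 pathway gene, where edgeR without these changes called 0 (5 with an unadjusted p under 0.05). In that order these alternatives called 300, 293, 212 and 194 of all genes for that difference, against 131. With the replicate block 2 inflammasome genes were called in HaCaT at 24 h, against 3 without it. In TIGK at 24 h 4 were called with and without it. Of all genes the block called 5762 in HaCaT and 5910 in TIGK at 24 h, against 5471 and 5617. The causes were not tested. The low counts of NLRP3 in HaCaT, NLRP2 in TIGK and AIM2 limit what can be said of their changes in time.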
